A study of Mus musculus with 4 samples.

Results

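Caveolins, cavins and *Ehd2* were followed in periosteal cells of the mouse sorted by a PDGFRα reporter. The members were 7 symbols, *Cav1*, *Cav2*, *Cav3*, *Ptrf*, *Sdpr*, *Prkcdbp* and *Ehd2*, found by name in a table of 45802 gene symbols, and each of the 7 had a value in all 4 libraries. The list was chosen by the log2 values of these genes in PDGFRα reporter+ against PDGFRα reporter- libraries, overall and at each heading number. *Ptrf*, *Sdpr* and *Prkcdbp* are older symbols of *Cavin1*, *Cavin2* and *Cavin3*. Such a value in all 4 libraries was present for 14415 genes. The animals were male mice 9 to 10 weeks old that carried CreER under the *Pdgfra* promoter and the membrane tdTomato and membrane GFP reporter. Tamoxifen was given to all of them on 5 days at a daily 150 mg/kg, and hindlimb periosteal cells were taken 14 days later and cultured for 1 passage with 10 ng/mL bFGF. CD31, CD45 and Ter119 negative cells were then sorted into GFP-bearing PDGFRα reporter+ cells and tdTomato-bearing PDGFRα reporter- cells. The reporter records promoter activity at the time of tamoxifen, before culture, and a population pools the cells of 3 to 6 mice according to the labels and of more mice according to the methods. There were 2 libraries per population. Their column headings carry the number 2 or 3, which is not the replicate number of the labels and whose meaning is not given in the sources used here.

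Caveolae are small flask-shaped pits of the plasma membrane that are rich in cholesterol, buffer membrane tension and gather signaling receptors. Caveolin proteins build the coat from within the membrane, cavins assemble on its cytoplasmic face, and the ATPase EHD2 sits at the neck and holds the pit at the surface. Caveolin-1 and cavin-1 are needed for caveolae outside striated muscle, and fibroblasts, endothelial cells, adipocytes and smooth muscle cells are rich in them. A value below is the log2 expression value that the authors deposited after quantile normalization, and a difference is on that log2 scale. The sequencing depth and the linear unit under the logarithm are unknown, so that no counting error is given and levels of different members are not ranked against each other.

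The stromal genes *Col1a1* (7.44 to 7.85) and *Pdgfra* (7.44 to 7.87) were present in each library, but the list of 10 stromal genes was not even between the populations. Of these 10 genes 4 had a higher and 6 a lower mean in PDGFRα reporter+ cells, *Dcn* (difference 1.39) and *Lum* (1.83) being higher without overlap and *Postn* differing by -1.14. *Pecam1*, the gene of CD31, had values of -4.68 and -4.79 in PDGFRα reporter+ and of -1.99 and -1.11 in PDGFRα reporter- libraries 2 and 3, 9.10-fold lower in the former, and *Ptprc*, the gene of CD45, lay between -2.30 and -0.39. The lists of other cell types were not even between the libraries. Over all genes, 50.9% had a lower mean in PDGFRα reporter+ cells, 8.1% were lower without overlap and 7.59% were higher without overlap. All 10 macrophage genes had a higher mean in PDGFRα reporter+ cells, with log2 values of the summed list of 7.87 and 8.12 compared with 6.55 and 7.48. Of 10 smooth muscle and pericyte genes 9 had a lower mean in these cells (4.25 and 4.93, compared with 5.36 and 5.58). Of the 8 endothelial genes without a blank, 7 were lower on average, 4 of them without overlap, with summed values of 1.46 and 1.81 compared with 1.78 and 2.74. The skeletal muscle list had summed values of 0.54 and 0.23 compared with 1.90 and 0.74. Adipocyte genes differed by heading number, with summed values of 2.81 and 2.63 in PDGFRα reporter+ and PDGFRα reporter- library 2 and of 7.27 and 8.26 in library 3. In bulk samples, fewer cells of a type and less RNA per cell cannot be told apart.

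*Cav1* and *Cav2* are neighbors on chromosome 6, with 17204 bases between the end of *Cav2* (17281185 to 17289130) and the start of *Cav1* (17306335 to 17341328), both on the plus strand of GRCm38.p6. *Cav3* lies elsewhere on chromosome 6 (112459505 to 112472872), *Ptrf* on chromosome 11 (100956736 to 100970617), *Sdpr* on chromosome 1 (51289126 to 51302960), and *Prkcdbp* (105480616 to 105482197) and *Ehd2* (15946963 to 15967535) on chromosome 7. Promoters from 250 bases before to 50 bases after the start were found in RefSeq (GRCm38.p6) for 6 of the 7 members, *Prkcdbp* being the exception. *Cav1* and *Ptrf* had 2 promoters each, and for *Cav1* the one at the start of the gene is shown. Those of the neighbors *Cav1* (chr6:17306085-17306384) and *Cav2* (chr6:17280935-17281234), which varied together between libraries, and of *Sdpr* (chr1:51288876-51289175), which did not vary with them, are shown 5′ to 3′ on the plus strand. Capitals mark matches, on either strand, to the GC box GGGCGG, the AP-1 motif TGANTCA, the TEAD motif GGAATG, the TATA box TATAAA or the CArG box.
Cav1: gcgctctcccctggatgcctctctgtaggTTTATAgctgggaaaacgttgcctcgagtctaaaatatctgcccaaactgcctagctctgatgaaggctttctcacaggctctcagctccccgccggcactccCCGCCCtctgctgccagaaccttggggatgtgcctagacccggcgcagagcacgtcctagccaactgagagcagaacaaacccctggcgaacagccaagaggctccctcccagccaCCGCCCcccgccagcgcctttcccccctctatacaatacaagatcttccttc
Cav2: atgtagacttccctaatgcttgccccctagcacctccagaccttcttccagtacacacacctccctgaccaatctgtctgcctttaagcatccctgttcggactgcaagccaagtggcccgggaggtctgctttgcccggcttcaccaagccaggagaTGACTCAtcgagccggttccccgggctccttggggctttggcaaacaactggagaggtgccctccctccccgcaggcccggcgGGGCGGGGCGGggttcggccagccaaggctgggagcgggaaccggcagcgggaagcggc
Cavin2 (Sdpr): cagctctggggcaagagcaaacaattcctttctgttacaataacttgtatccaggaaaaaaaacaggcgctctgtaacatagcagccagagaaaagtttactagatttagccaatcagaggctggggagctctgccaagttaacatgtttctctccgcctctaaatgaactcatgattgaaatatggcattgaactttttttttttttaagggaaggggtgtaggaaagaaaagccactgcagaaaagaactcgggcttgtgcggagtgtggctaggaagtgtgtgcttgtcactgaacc

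The *Cav1* promoter shown held 2 GC boxes on the minus strand, with first bases at -118 and -2 relative to the start site, and a TATA box on the minus strand. The other *Cav1* promoter (chr6:17307390-17307689, 62.3% G and C) held 0 matches. The *Cav2* promoter held 2 GC boxes that overlap by their end bases and 1 AP-1 motif. The *Sdpr* promoter held 0 matches to the 5 motifs. Among 32817 promoters of 300 bases, 35.6% held a GC box, 7.81% an AP-1 motif, 14.7% a TEAD motif, 13.6% a TATA box and 1.63% a CArG box. The *Sdpr* promoter had 43.3% G and C, with 17.4% of all promoters lower, compared with 59.3% for the *Cav1* promoter shown and 64.3% for *Cav2*. Of the promoters not shown, those of *Ptrf* had 66.7% and 67.0%, that of *Ehd2* 62.0% and that of *Cav3* 58.0%. The *Ptrf* promoters each held a GC box and a TEAD motif, that of *Ehd2* held 2 GC boxes and that of *Cav3* a TEAD motif. Matches are descriptions of letters and not of bound sites. *Cav1* and *Cav2* lie within the antisense gene *Gm15581* of GENCODE M21, *Sdpr* within the antisense gene *9330175M20Rik*, and *Prkcdbp* overlaps *Gm45667*. *9330175M20Rik* had a value in 0 libraries, and the other 2 symbols are not in the table. The libraries were stranded, but whether strand was used in counting is not given in the sources used here, so that reads of such partners cannot be told apart from those of the members.

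The first comparison was that of the sort itself, PDGFRα reporter+ against PDGFRα reporter- cells. It is the contrast by which the members were listed, so that their values are described and not tested. *Sdpr* was the member whose populations lay apart, with lower values in PDGFRα reporter+ cells by 0.77 on the log2 scale (1.70-fold). The study's own list of differential genes, from the same data, already holds *Cavin2* as lower in PDGFRα reporter+ cells. *Ptrf*, *Cav1* and *Ehd2* were also lower in PDGFRα reporter+ cells at each heading number, but their populations overlapped. *Cav2*, *Cav3* and *Prkcdbp* had opposite directions at the 2 numbers, as did 53.1% of all genes.

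*Sdpr* encodes cavin-2, a phosphatidylserine-binding cavin that shapes the caveolar membrane. It stood at 2.79 in PDGFRα reporter+ library 2, at 3.13 in PDGFRα reporter+ library 3, at 3.59 in PDGFRα reporter- library 2 and at 3.86 in PDGFRα reporter- library 3. Both PDGFRα reporter+ libraries therefore lay below both PDGFRα reporter- libraries, with means of 2.96 ± 0.24 (SD, n = 2) and 3.72 ± 0.19 (SD, n = 2). The difference was nearly even, -0.80 between the libraries numbered 2 and -0.73 between those numbered 3. With each library left out in turn it ranged from -0.94 to -0.60. Both PDGFRα reporter+ libraries lay below both PDGFRα reporter- libraries for 1 of the 7 members, beside 8.1% of all genes, and above both for 0 of the 7, beside 7.59%.

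*Ptrf* encodes cavin-1, the cavin on which the assembly of the coat depends. Its values were 6.88 and 6.01 in PDGFRα reporter+ libraries 2 and 3, and 7.05 and 6.86 in PDGFRα reporter- libraries 2 and 3. A single value, that of PDGFRα reporter+ library 3, stood below the other 3. The means were 6.44 ± 0.62 and 6.95 ± 0.14 (SD, n = 2), a difference of -0.51 that was made up of -0.17 at number 2 and -0.85 at number 3. Leaving out PDGFRα reporter+ library 2 gave -0.95, and leaving out PDGFRα reporter+ library 3 gave -0.07. *Ehd2*, the ATPase of the neck, had values of 4.89 and 4.48 in PDGFRα reporter+ and of 5.11 and 4.79 in PDGFRα reporter- libraries 2 and 3. Its difference of -0.27 was similar at the numbers, with -0.22 and -0.32, and was smaller than the spread from number 2 to number 3 within PDGFRα reporter+ cells. With PDGFRα reporter+ library 2 or 3 left out it was -0.47 or -0.06, and with PDGFRα reporter- library 2 or 3 left out -0.11 or -0.42.

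*Cav1*, the caveolin needed for caveolae in these cell types, had values of 4.96 and 2.61 in PDGFRα reporter+ libraries 2 and 3 and of 5.03 and 3.50 in PDGFRα reporter- libraries 2 and 3. The populations were close at number 2, with a difference of -0.07, and further apart at number 3, with -0.88. The means of 3.79 ± 1.66 and 4.26 ± 1.08 (SD, n = 2) differed by -0.47, less than the SD of either population. *Cav2*, which depends on caveolin-1 to reach the cell surface, had values of 2.49 and 0.52 in PDGFRα reporter+ and of 2.31 and 0.84 in PDGFRα reporter- libraries. It was higher in PDGFRα reporter+ cells at number 2 by 0.18 and lower at number 3 by 0.33, and the means differed by -0.07.

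*Prkcdbp* encodes cavin-3, which binds protein kinase C delta. Its values were 6.28 and 5.20 in PDGFRα reporter+ and 6.20 and 5.62 in PDGFRα reporter- libraries, with differences of 0.08 at number 2 and -0.42 at number 3. *Cav3*, the caveolin of striated muscle, had values below 0 in each library, -0.85 and -2.19 in PDGFRα reporter+ and -1.44 and -1.74 in PDGFRα reporter- libraries. Its differences were 0.59 at number 2 and -0.45 at number 3. Of 10 listed skeletal muscle genes, 5 had a value in all libraries (*Acta1*, *Mylpf*, *Tnnt3*, *Myh3* and *Ttn*), and 4 of these 5, *Tnnt3* being the exception, were lower in both PDGFRα reporter+ libraries, with a median difference of -1.73 over all 5. Over all genes, 8.1% were lower in both PDGFRα reporter+ libraries. *Myf5* and *Pax7* were blank in each library. The part of muscle RNA in the values of *Cav3* was not tested. For *Cav1*, *Cav2*, *Cav3* and *Prkcdbp* the sign of the difference turned when 1 library was left out, which unbalances the heading numbers.

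Lower values in PDGFRα reporter+ cells at each heading number were found for 4 of the 7 members (*Cav1*, *Ptrf*, *Sdpr* and *Ehd2*), beside 24.8% of all genes, and higher values at each number for 0 of the 7, beside 22.1%. The median difference over the 7 members was -0.27, beside -0.0035 over all genes. Since the members were listed with this contrast in view, nothing is read from these counts. The macrophage genes that were higher in PDGFRα reporter+ cells, and the smooth muscle, endothelial and skeletal muscle genes that were lower, moved with the same contrast. Adipocyte genes were lower in PDGFRα reporter+ cells at number 3, where *Plin1* differed by -2.73, *Adipoq* by -2.46, *Cidec* by -2.30, *Fabp4* by -1.83, *Cfd* by -1.41, *Pparg* by -0.76 and *Lpl* by -0.09. The part of these lists in the members' differences was not tested.

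**Figure D1:**
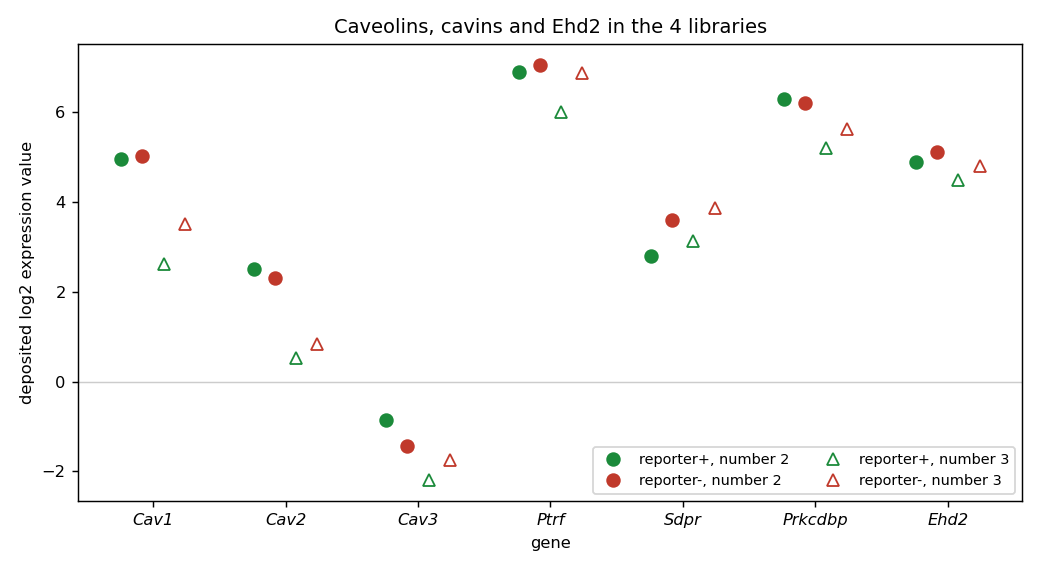
Deposited log2 expression values (vertical axis) of the 7 members in the 4 libraries. Green marks PDGFRα reporter+ and red PDGFRα reporter- cells, filled circles the libraries numbered 2 and open triangles those numbered 3. *Cav1* lies at 4.96 and 5.03 in the libraries numbered 2 and at 2.61 and 3.50 in those numbered 3, whereas for *Sdpr* both green points lie below both red points.

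**Figure D2:**
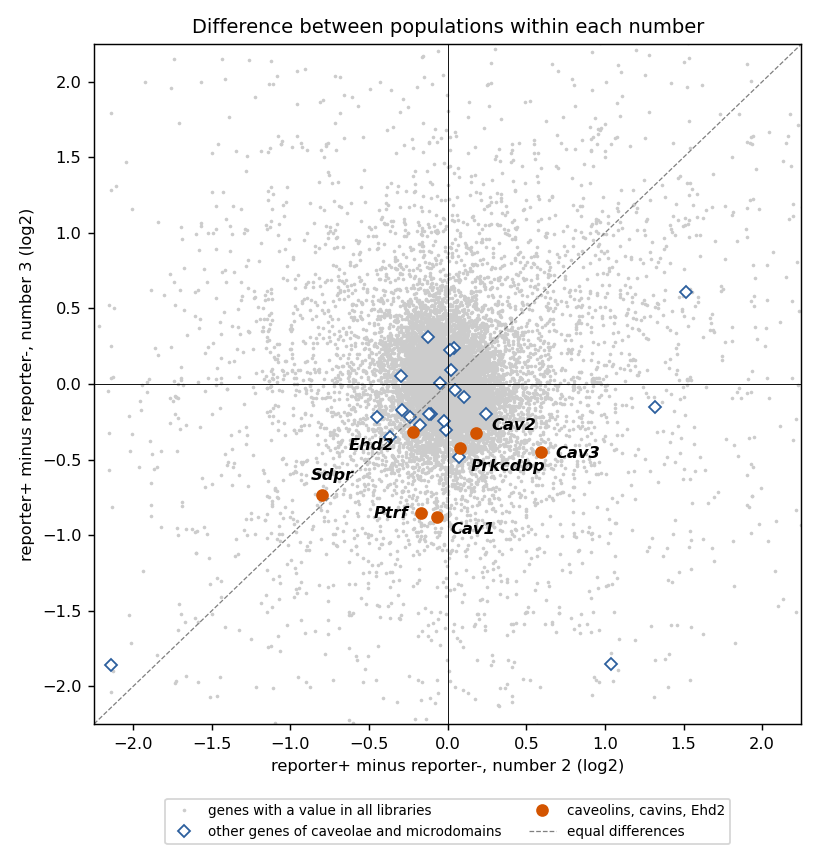
Difference between PDGFRα reporter+ and PDGFRα reporter- cells on the log2 scale, between the libraries numbered 2 (horizontal axis) and between those numbered 3 (vertical axis). Grey points are the 14415 genes tested (points beyond the axes are not drawn), open diamonds the other genes of caveolae and microdomains, and filled circles the members. *Sdpr* lies near the line of equal differences (-0.80 and -0.73), and *Cav1* and *Ptrf* lie at -0.88 and -0.85 on the vertical axis and closer to 0 on the horizontal axis.

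The second comparison was that of the heading numbers, number 3 against number 2. It draws on the same 4 values of each member by which the list was chosen, so that the members are again described and not tested. *Cav1* and *Cav2* were lower in the libraries numbered 3, by 3.84-fold and 3.30-fold on average, in both populations. *Prkcdbp* was lower by 1.78-fold. *Cav3*, *Ptrf* and *Ehd2* were lower in both libraries numbered 3 as well, and *Sdpr* was higher on average at number 3, with overlap and with a direction that turned when 1 library was left out. Each number holds 1 library of each population, perhaps from 1 culture, so that p-values given for other genes measure the spread between these libraries only.

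*Cav1* had a mean of 5.00 ± 0.05 (SD, n = 2) at number 2 and of 3.05 ± 0.62 at number 3, a log2 difference of -1.94. The difference was -2.35 within PDGFRα reporter+ and -1.53 within PDGFRα reporter- cells, and it ranged from -2.38 to -1.50 with 1 library left out. *Cav2* had means of 2.40 ± 0.13 and 0.68 ± 0.23, a difference of -1.72, with -1.98 and -1.47 within the populations and a range of -1.89 to -1.56. In both neighbors the libraries numbered 3 lay below those numbered 2 by more than the SD at either number. *Prkcdbp* had means of 6.24 ± 0.05 and 5.41 ± 0.30, a difference of -0.83, with -1.08 within PDGFRα reporter+ and -0.58 within PDGFRα reporter- cells and a range of -1.04 to -0.62.

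The remaining members had smaller differences. *Cav3* had means of -1.15 ± 0.42 at number 2 and -1.96 ± 0.32 at number 3, a difference of -0.82 that ranged from -1.11 to -0.52 with 1 library left out. With a pseudocount of 1 this difference of *Cav3* was -0.21. *Ptrf* had means of 6.96 ± 0.12 and 6.43 ± 0.60, a difference of -0.53. Its difference was -0.87 within PDGFRα reporter+ but -0.19 within PDGFRα reporter- cells, and with 1 library left out it ranged from -0.96 without PDGFRα reporter- library 3 to -0.11 without PDGFRα reporter+ library 3. *Ehd2* had means of 5.00 ± 0.15 and 4.63 ± 0.22, a difference of -0.36 that ranged from -0.52 to -0.21. For *Sdpr*, the means of 3.19 ± 0.57 and 3.49 ± 0.52 differed by 0.31, with 0.34 within PDGFRα reporter+ and 0.27 within PDGFRα reporter- cells. It turned to -0.093 without PDGFRα reporter+ library 2 and to -0.059 without PDGFRα reporter- library 3. The libraries of the 2 numbers overlapped for *Sdpr* and for no other member.

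Both libraries numbered 3 lay below both libraries numbered 2 for 6 of the 7 members, beside 28.8% of all genes, and above both for 0 of the 7, beside 36.4%. The median difference between the numbers was -0.82 over the members and 0.05 over all genes. As for the populations, nothing is read from these counts. Adipocytes are rich in caveolae, and adipocyte genes moved in the opposite direction to *Cav1* and *Cav2*. Of the 8 listed adipocyte genes, the 3 with a value in all libraries rose at number 3 with an adjusted p under 0.05 in limma. *Lpl* was higher by 5.62 (SE 0.09, limma adjusted p = 0.000154), *Fabp4* by 4.26 (SE 0.58, limma adjusted p = 0.0161) and *Pparg* by 2.56 (SE 0.28, limma adjusted p = 0.0106). *Plin1* and *Cidec* were blank in both libraries numbered 2 and present in both numbered 3, and *Lep* was blank in each library. Other lists were not all even between the numbers either. Over all genes, 45.6% had a lower mean at number 3. Macrophage genes had a higher mean at number 3 for 9 of 10 (median difference 0.79), endothelial genes for 6 of 8 (median 0.52) and smooth muscle and pericyte genes for 7 of 10 (median 0.48). Of these, *Tek* (3.32, limma adjusted p = 0.0140) and *Rgs5* (2.16, limma adjusted p = 0.0202) rose and *Cspg4* (-2.16, limma adjusted p = 0.0251) fell. Of the 5 skeletal muscle genes with a value in all libraries, 2 had a higher and 3 a lower mean at number 3 (median -0.46). None of them had an adjusted p under 0.05 in limma. *Myod1*, *Myog* and *Ckm*, which had blanks, were lower or blank at number 3 wherever they had a value at number 2. The summed skeletal muscle list went from 0.54 at number 2 to 0.23 at number 3 in PDGFRα reporter+ cells. In PDGFRα reporter- cells it went from 1.90 to 0.74. Of the 10 stromal genes 4 had a higher and 6 a lower mean at number 3 (median -0.29). *Postn* rose by 3.03 (limma adjusted p = 0.0256), *Prrx1* fell by 0.54 (limma adjusted p = 0.0484), and *Col3a1* had a difference of 1.03 (limma adjusted p = 0.0531). The part of these lists in the difference of the caveolins was not tested.

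**Figure D3:**
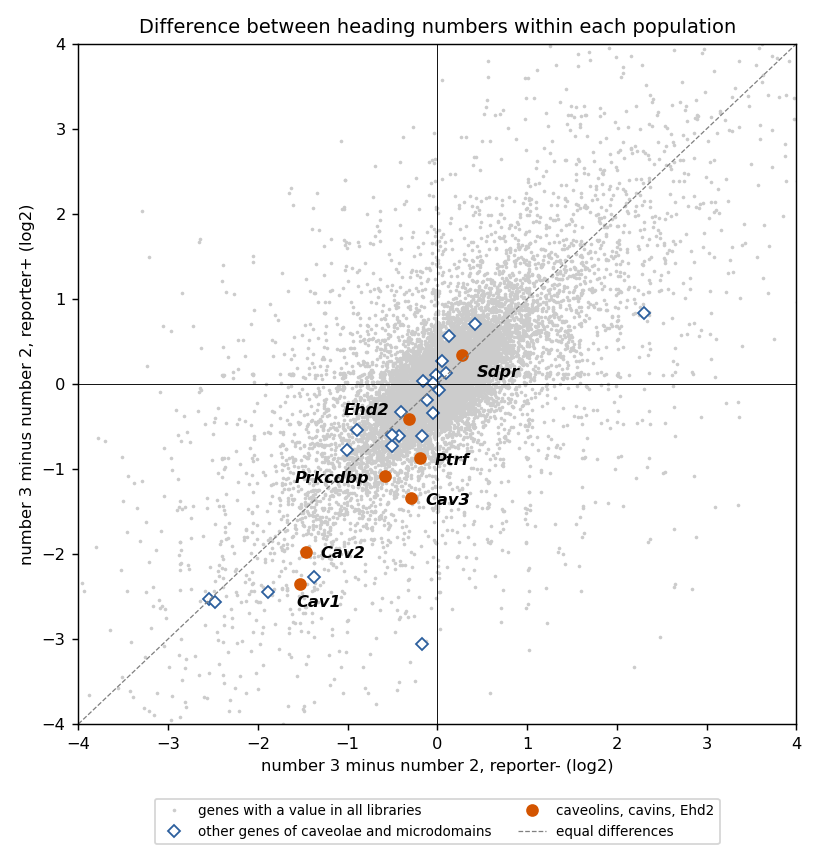
Difference between the libraries numbered 3 and 2 on the log2 scale, within PDGFRα reporter- cells (horizontal axis) and within PDGFRα reporter+ cells (vertical axis). Grey points are genes with a value in all libraries (points beyond the axes are not drawn), open diamonds the other genes of caveolae and microdomains, and filled circles the members. *Cav1* (-1.53 and -2.35) and *Cav2* (-1.47 and -1.98) are negative on both axes, and *Sdpr* (0.27 and 0.34) is positive on both.

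The other genes of the system were 23 genes listed by role, each with a value in all libraries. Between the populations, 0 of the 23 had an adjusted p under 0.05 in limma, beside 0% of all genes, and 1 of the 23 had an unadjusted p under 0.05, beside 0.909% of all genes. That gene was *Nos3*, the endothelial nitric oxide synthase that caveolin-1 binds and restrains. With a pseudocount of 1, 0 of the 23 had an unadjusted p under 0.05 in limma. *Nos3* lay far below the library medians of 1.48. Its values were -6.56 and -5.86 in PDGFRα reporter+ and -4.43 and -4.01 in PDGFRα reporter- libraries 2 and 3, 3.99-fold lower (log2 SE 0.68, limma adjusted p = 1). The populations lay apart also for *Ehd1*, *Dnm2*, *Flna* and *Abl1*, which were lower in PDGFRα reporter+ cells by at most 0.23, and for *Yes1*, which was higher by 0.14, so that 5 of the 23 were lower without overlap, beside 8.1% of all genes, and 1 of the 23 was higher without overlap, beside 7.59%. *Flna*, the actin cross-linker that anchors caveolae, had values of 6.85 and 6.95 in PDGFRα reporter+ and of 7.14 and 7.12 in PDGFRα reporter- libraries. *Nos3* is also an endothelial gene. Of the 8 endothelial markers without a blank, 7 had a lower mean in PDGFRα reporter+ cells. Without overlap these were *Pecam1* (difference -3.19), *Cdh5* (-4.26), *Emcn* (-3.44) and *Kdr* (-1.82), each with values below 0 in every library. *Tek* (-0.77), *Esam* (-0.53) and *Egfl7* (-0.04) overlapped, and *Vwf* had a difference of 0.09. The markers did not all differ alike. Their part in the difference of *Nos3* was not tested. The median difference between the populations was -0.14 over the 23 genes. This fit had no block, so that differences between the heading numbers count as spread within a population. With the heading number as a block, limma called 29 of all genes and 0 of the 23 at an adjusted p under 0.05.

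Between the heading numbers, limma called 9 of the 23 genes at an adjusted p under 0.05, beside 15.3% of all genes. All 9 were lower at number 3, beside 7.06% of all genes called lower, and 0 were higher, beside 8.26%. With the population as a block, 8 were lower and *Cd36* was higher (1.57, limma adjusted p = 0.00973), and *Flot2* was not called (limma adjusted p = 0.0557). *Murc*, which encodes the muscle cavin cavin-4, fell from 0.97 and 1.34 in PDGFRα reporter+ and PDGFRα reporter- library 2 to -1.56 and -1.21 in library 3, a log2 difference of -2.54 (SE 0.24, adjusted p = 0.00877, limma). *Trpv4*, a mechanosensitive calcium channel that is found with caveolin-1, fell from 1.72 and 1.89 to -0.85 and -0.58, a log2 difference of -2.52 (SE 0.18, adjusted p = 0.00639, limma). The populations were close to each other in both genes, and the 2 numbers did not overlap. Skeletal muscle genes without a blank had a median difference of -0.46 between the numbers, with 2 higher and 3 lower at number 3. Of those with a blank, *Myod1* went from -2.05 to blank in PDGFRα reporter+ and from -2.05 to -5.34 in PDGFRα reporter- cells. *Myog* went from -3.78 to -4.98 and from -1.71 to blank. *Ckm* had a value in PDGFRα reporter- library 2 only (-3.29). The part of skeletal muscle genes in the difference of *Murc* was not tested. Among the relatives of *Ehd2*, *Ehd3* fell from 2.28 and 2.21 to -0.16 and 0.32, 4.49-fold on average (log2 SE 0.20, adjusted p = 0.00877, limma). *Ehd4* fell by 0.89 (limma adjusted p = 0.0430), and *Ehd1* had a difference of 0.11 (limma adjusted p = 0.568). The count of 9 was 3 without PDGFRα reporter+ library 2, PDGFRα reporter+ library 3 or PDGFRα reporter- library 2, 5 without PDGFRα reporter- library 3, and 3 without a variance trend. In the fits without a library, 1 number has a single library, which is assumed to vary like the other number, so that the spread between libraries comes from the other number alone. *Trpv4* and *Murc* had an adjusted p under 0.05 in each of these limma fits and *Ehd3* in each but the fit without PDGFRα reporter+ library 2, where *Cd36* was called higher instead.

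Of the dynamins, the GTPases that cut the neck, *Dnm1* fell by 0.62 (limma adjusted p = 0.0267), while *Dnm2* had a difference of -0.02 and *Dnm3* one of 0.35. The membrane-bending pacsins *Pacsin1*, *Pacsin2* and *Pacsin3* had differences of -1.82, -0.20 and -0.39, and 0 of the 3 passed the test. *Pacsin1* had low values, between -6.58 and -3.70. Among the scaffolds of other membrane microdomains, the flotillins *Flot1* and *Flot2* fell by 0.55 and 0.37 (limma adjusted p = 0.0182 and 0.0459), and *Stom*, the gene of stomatin, fell by 0.72 (limma adjusted p = 0.0244). Of the kinases that act on caveolin-1, *Fyn* fell by 0.52 (limma adjusted p = 0.0421), and *Src*, *Yes1* and *Abl1* had differences of -0.02, -0.06 and -0.16. *Cd36*, a fatty acid carrier that adipocytes also express, had a positive difference of 1.57 that did not pass the test (limma adjusted p = 0.0718), and *Plvap*, the protein of caveolar diaphragms, one of -1.61 (limma adjusted p = 0.174). *Insr*, the insulin receptor gene, had a difference of 0.16. The median difference over the 23 genes was -0.37.

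**Figure D4:**
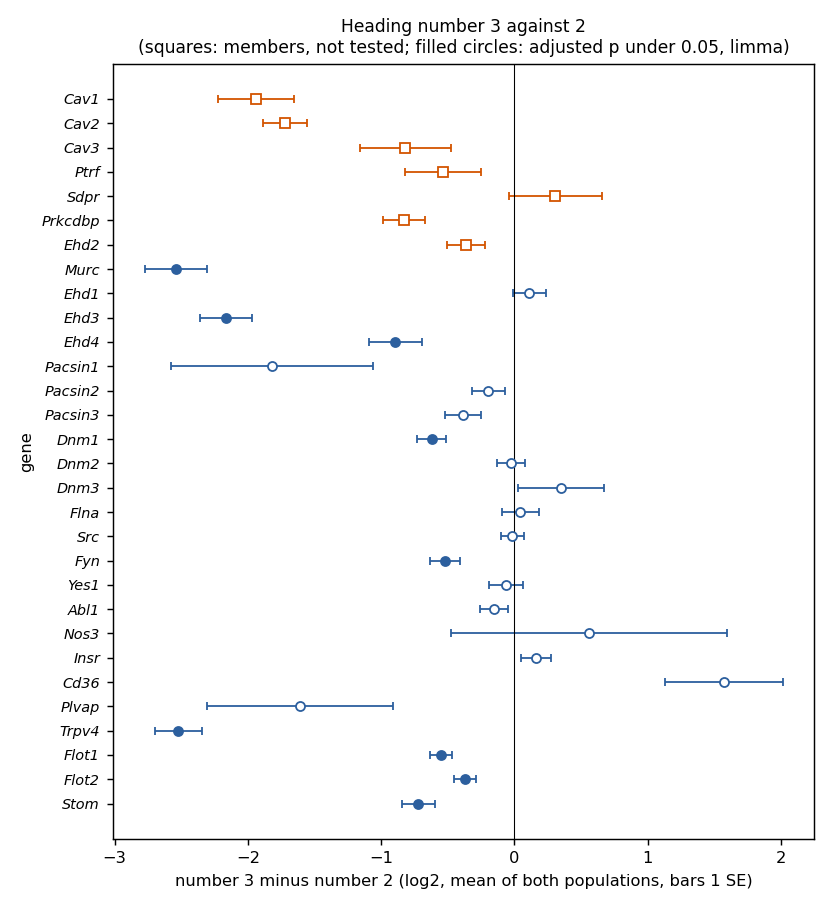
Difference between heading numbers 3 and 2 on the log2 scale (horizontal axis, mean of both populations, bars 1 SE from limma) for the 7 members (orange squares, not tested) and the 23 other genes (blue circles). Filled circles have an adjusted p under 0.05. *Murc*, *Trpv4*, *Ehd3*, *Cav1* and *Cav2* lie between -2.54 and -1.72, and 0 filled circles lie above 0. *Pacsin1*, which did not pass the test and had low values (-6.58 to -3.70), lies in the same range at -1.82.

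Genes of the table with the pattern most like a member were sought among the 10224 genes whose 4 values averaged 0 or more, by the root mean square difference of the 4 values after the mean of each gene was subtracted. For *Cav1* the nearest 5 were *Ttc9* (0.05), *Crip1* (0.10), *Malrd1* (0.11), *Sema3b* (0.11) and *Itpr3* (0.12). *Crip1*, a small LIM protein gene, had values of 6.54 and 4.34 in PDGFRα reporter+ and of 6.56 and 4.96 in PDGFRα reporter- libraries. *Itpr3*, a receptor for inositol trisphosphate that releases calcium, had 3.89 and 1.72, and 3.96 and 2.26. Both had the high values of *Cav1* at number 2 and its lowest value in PDGFRα reporter+ library 3. For *Sdpr* they were *Slco2a1* (0.03), *Mfap5* (0.04), *Cpxm1* (0.10), *Gstp2* (0.11) and *Mfap3l* (0.13). *Slco2a1*, a prostaglandin carrier, had values of 4.15 and 4.47 in PDGFRα reporter+ and of 4.99 and 5.27 in PDGFRα reporter- libraries. *Mfap5*, a microfibril glycoprotein, had 3.01 and 3.35, and 3.72 and 4.07. Both were lower in PDGFRα reporter+ cells and higher by a smaller amount at number 3, as *Sdpr* was. The study's own list of genes lower in PDGFRα reporter+ cells holds *Slco2a1* and *Mfap5* as well as *Cavin2*. *Gstp2* has close paralogs that could share its reads. These likenesses rest on 4 values per gene and carry no test.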

How the data were processed

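Total RNA of 2 libraries of PDGFRα reporter+ and 2 of PDGFRα reporter- cells was made into stranded libraries and read from both ends by Illumina sequencing. The submitters' processing notes name bcl2fastq 2.17.1.14, Partek 7.0 and GRCm38.p6. The aligner, the counting, the annotation and the filters are not given in the sources used here. The authors deposited log2 values after quantile normalization, 1 per gene symbol and library, blank where there was no signal, and the depth is unknown. Columns were assigned to populations by their headings. Nothing says whether libraries of 1 population came from separate cultures, so that p-values measure only the spread between these samples.

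The test was limma 3.58.1 under R 4.3.3, two-sided, with a variance trend and without a block, on every gene that had no blank. P-values were adjusted by Benjamini-Hochberg over those genes, with 0.05 as threshold. The model was tested on simulated data. Fold values are 2 raised to the log2 difference. Of 91 listed genes, 89 were matched to RefSeq GRCm38.p6 by symbol or synonym. Summaries used Python 3.11.15 with pandas 2.3.3 and matplotlib 3.10.9. The genes named are all members, the genes of the lists and the 5 genes most like *Cav1* and *Sdpr*. The members and lists were chosen with earlier results of these data known. Alternatives were a block, no trend, genes with a mean of at least 0, median centering, a pseudocount of 1, blanks set to the lowest value, and leaving out each library.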

Additional observations from a re-analysis of the deposited data

Results flagged for a closer look

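The difference between PDGFRα reporter+ and PDGFRα reporter- cells had opposite signs at heading numbers 2 and 3 for 3 of the 7 members, beside 53.1% of all genes. The change from number 2 to number 3 was -0.51 for *Cav2*, -1.04 for *Cav3* and -0.50 for *Prkcdbp*. Among the 23 other genes of the system the signs were opposite for 9, with changes of -0.55 for *Ehd3*, -0.44 for *Pacsin3*, 0.43 for *Dnm3*, 0.056 for *Src*, -0.19 for *Fyn*, -1.47 for *Cd36*, -2.89 for *Plvap*, -0.087 for *Flot1* and 0.35 for *Stom*. With 1 library of each population at each number, these differences were not tested.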

How the results depend on the processing

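Median centering and a pseudocount of 1 kept the sign of the difference between populations for the 7 members and moved it by less than the SD between libraries. Filling blanks could not change the members, which have none. Leaving out 1 library gave ranges of -1.65 to 0.70 for *Cav1*, -1.06 to 0.92 for *Cav2*, -0.60 to 0.74 for *Cav3*, -0.71 to 0.37 for *Prkcdbp*, -0.95 to -0.07 for *Ptrf* and -0.47 to -0.06 for *Ehd2*, and it moved the difference of *Sdpr* between numbers from -0.093 to 0.71. These settings leave the heading numbers or populations unbalanced. With the heading number as a replicate block, 29 genes differed between populations with an adjusted p under 0.05 in limma, beside 0 without it (131 at an unadjusted p under 0.05), and 0 of the 23 other genes of the system. Deviations of libraries with the same number from their population mean had a correlation of 0.681 across genes, but with 2 pairs the number is not established as a pairing. Between heading numbers, 2208 genes were called, 582 without a trend, and 225 to 1034 with 1 library left out. Of the 23 other genes, 9 were called, 3 without a trend, and 3 to 5 with 1 library left out. The cause was not tested. With no counts, the precision that depth gives is unknown.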
